A study of Homo sapiens with 22 samples.

Results

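Poly(A) site use was compared between Kasumi-1 cells carrying FIP1L1 shRNA 2 and control cells, over every nuclear site of a 3'READS table. The members were the 1610931 sites on sequences other than the mitochondrial chromosome, out of 1618880 sites in the table, and their values were raw reads per site in 3 control and 3 shRNA 2 libraries. Of these sites, 1059707 held a single read over all 10 libraries of the table and 509642 held none in the 6 libraries compared. A filter on low counts (filterByExpr of edgeR) left 28244 sites, which are the sites tested, and a site that is low in every group could not pass it. Positions are hg19 as deposited. An hg19 genome and annotation were not used here, so sites are given by chromosome, strand and position and were not assigned to genes.

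Kasumi-1, an established line from acute myeloid leukaemia, carries a RUNX1-RUNX1T1 fusion. All cells compared came from this line, grown in RPMI with serum. They had received a lentivirus with a control shRNA or with the second of the study's FIP1L1 shRNAs, had been selected with puromycin, and gave total RNA. A further 4 libraries with FIP1L1 shRNA 1 were in the same fit and are named only where their values stand beside those of shRNA 2. Whether each replicate was its own transduction is not said in the labels, and the spread that p-values rest on is that of these libraries and may be technical.

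Most human genes carry more than one poly(A) site. FIP1L1 belongs to the cleavage and polyadenylation specificity factor, in which it binds U-rich sequence near the poly(A) signal and contacts poly(A) polymerase, and the level of the cleavage machinery is known to affect which site of a transcript is used. A choice between sites in the last exon changes the length of the 3' untranslated region, while a site in an intron ends the transcript early. 3'READS sequences the last bases before the poly(A) tail, so each read marks the site where an RNA ended. A read count reflects the amount of RNA ending at a site, and fewer cells making an RNA cannot be told apart from less RNA per cell.

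Nuclear reads numbered 6638540, 9172850 and 6709093 in control 1 to 3 and 5769187, 9337945 and 8348212 in shRNA 2 replicates 1 to 3. Control 3 stood apart from the other controls. The chi-square over degrees of freedom, which is near 1 for libraries that differ by sampling noise alone, was 3.25 between controls 1 and 2, and 37.6 and 39.4 between control 3 and these. It ran from 23.9 to 28.8 between the shRNA 2 libraries and controls 1 and 2, from 43.8 to 52.5 between them and control 3, and from 3.95 to 5.63 among themselves. Among the 4 shRNA 1 libraries it was 3.38 between replicates 3 and 4 and from 24.4 to 43.4 otherwise. These libraries share the estimate of spread behind the calls. By chi-square over degrees of freedom, control 3 was thus farther from the other controls than any shRNA 2 library was. By correlation it was closer to them. Its Pearson correlations of log2 CPM with controls 1 and 2 were 0.935 and 0.937, against 0.920 to 0.931 for shRNA 2 libraries. The Spearman correlations were 0.872 and 0.875, against 0.830 to 0.850. Counts of called sites, runs and pairs and the median ratios of most distance classes are given with and without control 3. Other results are given with control 3 only.

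FIP1L1 mRNA was measured by RNA-seq in separate libraries of the same groups. It stood at 42.2, 38.9, 44.0 and 40.1 CPM (reads scaled to a common library size) in 4 control libraries and at 20.2, 20.2, 19.1 and 18.7 CPM in 4 shRNA 2 libraries, so the groups did not overlap. The log2 change was -1.08 (SE 0.10, edgeR adjusted p = 3.01e-09). Markers of the labelled cell type were present in both groups, and 4 of 5 moved with shRNA 2. The progenitor marker KIT stood at 1447 CPM in the control and 1452 with shRNA 2. CD34, also of progenitors, went from 260 to 178 CPM (log2 change -0.55, edgeR adjusted p = 5.25e-05) and the granule enzyme MPO from 16212 to 9899 (log2 change -0.71, edgeR adjusted p = 2.41e-06). RUNX1T1, partner in the fusion, went from 185 to 142 CPM (log2 change -0.39, edgeR adjusted p = 7.59e-05), and the myeloid surface marker CD33 from 72.1 to 183 (log2 change 1.34, edgeR adjusted p = 5.81e-12). Their part in the poly(A) site results was not tested. The lymphoid marker CD3E was at 0.742 CPM, fibroblast COL1A1 at 0.186 and erythroid HBB at 0. EPCAM, best known from epithelium, was at 134 CPM in the control and 138 with shRNA 2.

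The first comparison asked at which sites RNA amounts differed. With shRNA 2, 1102 sites were higher than in the control and 1245 were lower (edgeR quasi-likelihood test, adjusted p under 0.05), which is 3.9% and 4.41% of the 28244 sites tested and 8.31% in all. Of these, 1057 and 1108 moved at least 2-fold, and in all 2347 no shRNA 2 library overlapped a control library. How often this held over all tested sites is not given here, so it is no further support for the calls. The median log2 change over all sites was -0.003. The balance moved with the scaling: on nuclear read totals without TMM the median moved to 0.26 and the calls to 2024 higher and 744 lower, so that 73.1% of calls were higher in place of 47.0%. Without control 3 there were 862 higher and 826 lower, and 719 and 742 of these were among the calls above. The counts were 533 and 707 without control 1, 501 and 674 without control 2, and 420 and 386, 416 and 362, and 458 and 396 without shRNA 2 replicates 1, 2 and 3. With the shRNA 1 libraries left out of the fit, 2763 and 2746 sites were called, among them 1098 and 1244 of those above.

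Direction moved with the level of a site. The sites were split by level into 4 classes of 7061. In the class with the fewest reads (0.751 to 1.96 CPM) the median log2 change was 0.22, with 198 called higher and 98 lower. In the class with the most (above 12.7 CPM) it was -0.12, with 318 higher and 611 lower. The classes between had medians of 0.04 and -0.01. The medians of all classes move with the scaling by the shift given above, and so does the sign of the lower ones. Among the 100 sites with the most reads, 80 had a log2 change below 0, 10 were called lower and 0 higher, and their median was -0.42. Those in the top 100 of each library held 37.6%, 37.5% and 36.7% of nuclear reads in the control and 32.1%, 31.5% and 31.8% with shRNA 2. The groups did not overlap in this share (exact permutation test, two-sided p = 0.1, the smallest that 3 against 3 allows). It ran from 35.6% to 39.4% with shRNA 1.

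**Figure D1:**
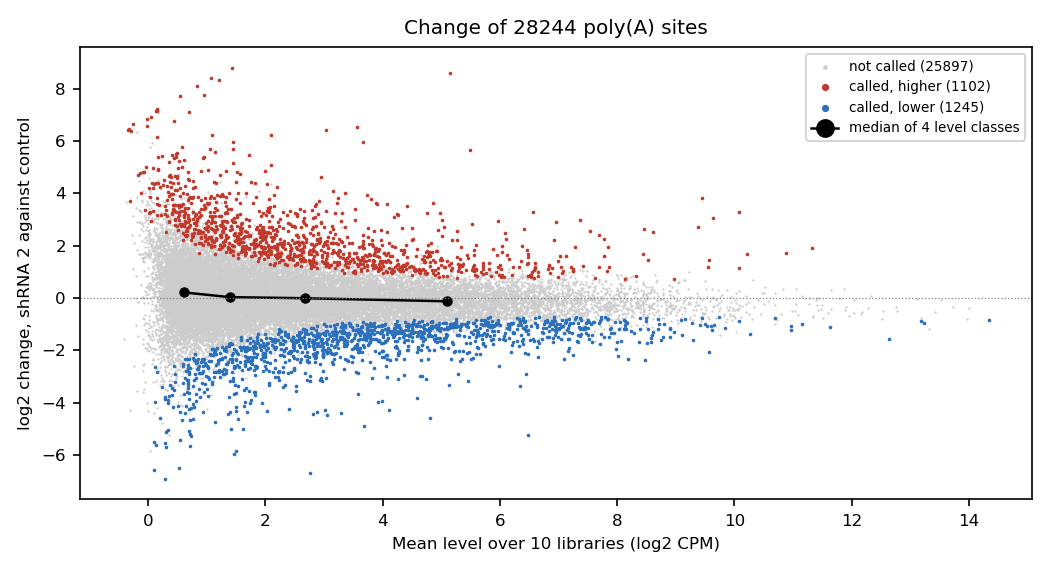
Each point is 1 of 28244 poly(A) sites, with its mean level over 10 libraries (log2 CPM) on the x axis and its log2 change with shRNA 2 on the y axis. Red and blue points are the 1102 sites called higher and the 1245 called lower, and the black line, which joins the medians of 4 classes by level, falls from 0.22 to -0.12.

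Site levels below are in CPM relative to TMM-scaled nuclear library size. The highest change was at a plus-strand site of chromosome 14 (position 24114846), with no other tested site within 5000 nt on its strand. It held 2, 4 and 0 reads in control 1 to 3 and 736, 1174 and 1111 with shRNA 2, which is 0.26 ± 0.236 against 115.7 ± 3.21 CPM (SD, n = 3 each). The 3 shRNA 2 libraries lay close together and far above every control, a log2 change of 8.59 (SE 0.55, edgeR adjusted p = 1.04e-06). The 4 shRNA 1 libraries held 1, 6, 1 and 4 reads there. This site therefore passed the filter through its shRNA 2 reads, and its call is no support of its own.

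A second site on chromosome 14, on the minus strand at 24052848, was next, with 5, 3 and 0 reads in the controls and 214, 441 and 333 with shRNA 2. Its log2 change was 6.54 (SE 0.61, edgeR adjusted p = 5.27e-05), and shRNA 1 libraries held 0, 0, 2 and 4 reads. On the plus strand of chromosome 10, the last site of a run of 2 at 89705034 held 1, 2 and 0 control reads against 99, 121 and 77. With 3 control reads in all, the ratio was 78.9 with a 95% exact interval from 26.8 to 385 that covers counting error only (edgeR adjusted p = 6.96e-05). These 3 sites were near background in every control library. With few shRNA 1 reads as well, they passed the filter through their shRNA 2 reads, so their calls are no support of their own.

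The site on the minus strand of chromosome 9 at 117092785 rose from 0.364 ± 0.264 to 22.1 ± 5.02 CPM (log2 change 5.95, SE 0.63, edgeR adjusted p = 9.33e-05), and its log2 change with shRNA 1 was 5.32. On the plus strand of chromosome 6, a middle site at 52860720 stood at 34.4, 12.7 and 19.6 CPM with shRNA 2 and at 0.64, 0.574 and 0 in the controls (log2 change 5.64, SE 0.64, edgeR adjusted p = 1.63e-04). With shRNA 1 its log2 change was 7.74. The chromosome 9 and chromosome 6 sites were also near background in every control library. They passed the filter through libraries of both shRNAs, so their calls are no support of their own. The sixth site, on the plus strand of chromosome 1 at 151880098, stood at 15.8, 10.6 and 11.0 CPM against 0.48, 0 and 0.676, while the shRNA 1 libraries were at or below 0.602. This site too passed the filter through its shRNA 2 reads, so its call is no support of its own. Side by side, levels at the sites on chromosomes 9 and 6 were high with both shRNAs, while shRNA 1 levels stayed near those of the control at the sites on chromosomes 14 and 1. The chromosome 10 site held 6, 3, 5 and 8 reads with shRNA 1, a log2 change of 2.46 (edgeR adjusted p = 0.0309). The difference between the shRNAs was not tested.

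The site that fell furthest was the last of 4 in its run, on the plus strand of chromosome 11 at 93455033. Its reads numbered 691, 1107 and 679 in control 1 to 3 and 21, 40 and 21 with shRNA 2, or 117.5 ± 8.61 against 3.13 ± 0.81 CPM. The log2 change was -5.22 (SE 0.28, edgeR adjusted p = 1.24e-07), and the shRNA 1 libraries, at 126.3 to 136 CPM, were not below the control. An isolated minus-strand site on chromosome 5 (34048517) stood at 10.2, 13.9 and 20.3 CPM in the controls and 0.158, 0.382 and 0.852 with shRNA 2, a log2 change of -4.87 (SE 0.69, edgeR adjusted p = 8.63e-04). On the plus strand of chromosome 13, the first site of a run of 2 (100544823) fell from 43.2 ± 8.55 to 1.70 ± 0.8 CPM (log2 change -4.60, SE 0.42, edgeR adjusted p = 5.27e-05). At all 3 sites every shRNA 2 library lay below every control.

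A middle site on the plus strand of chromosome 7 (92546501) fell from 22.3 ± 2.69 to 1.06 ± 0.611 CPM, with log2 changes of -4.45 (SE 0.51, edgeR adjusted p = 1.70e-04) with shRNA 2 and -3.02 with shRNA 1. An isolated minus-strand site on chromosome 3 (59735038) went from 9.6, 9.42 and 18.3 CPM to 0.792, 0.573 and 0.426, a log2 change of -4.38 (SE 0.48). The first site of a run of 3 on the minus strand of chromosome 12 (49390375) fell from 17.9 ± 2.22 to 0.859 ± 0.26 CPM (log2 change -4.33, SE 0.48), and its log2 change with shRNA 1 was -2.20. In each of these 12 sites the libraries of the groups did not overlap, which the rule that chose them required.

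Sites were joined into runs to compare sites that may belong to one transcript: consecutive tested sites on a chromosome and strand, each at most 5000 nt from the next. There were 16435 runs, 10407 of a single isolated site and 6028 of 2 or more, with 26 in the longest. A run stands in for a gene and may join 2 neighbouring genes. The summed reads of a run were higher in 976 runs and lower in 1214 (edgeR adjusted p under 0.05), which is 5.94% and 7.39%, 13.3% in all. The groups did not overlap in 2186 of these 2190, and the share without overlap over all runs is not given here. Without control 3 there were 737 and 874. The counts were 543 and 786 without control 1, 522 and 796 without control 2, and 463 and 541, 436 and 490, and 504 and 550 without shRNA 2 replicates 1, 2 and 3. On nuclear totals without TMM there were 1704 higher and 708 lower.

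Site position within a run went with small shifts. First sites, the most upstream on their strand, had a median log2 change of -0.03 with 194 called higher and 282 lower of 6028. Last sites had a median of 0.08 with 256 higher and 228 lower of 6028. Isolated sites had a median of -0.07 (443 higher, 512 lower of 10407) and middle sites of 0.05 (209 and 223 of 5781). These medians move with the scaling by the shift given above, which is larger than any of them. Against 3.9% higher and 4.41% lower over all sites, the shares were 3.22% and 4.68% for first sites and 4.25% and 3.78% for last sites. Of the 6028 multi-site runs, 1100 held a called site: in 503 all called sites were higher, in 580 all were lower, and in 17 sites were called in both directions. In 206 of these runs at least 2 sites were called in 1 direction.

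The second comparison asked whether RNA ended at another site of the same run. In each multi-site run the 2 sites with the most reads formed a pair, and the ratio of distal (downstream) to proximal (upstream) reads was compared. Over all 6028 pairs the median of the log2 ratio was 0, 0.04 and -0.07 in control 1 to 3 and 0, 0.07 and 0.08 with shRNA 2, so the groups overlapped (exact permutation test, two-sided p = 0.3). The distal sites held 45.1% ± 1.15 of pair reads in the control and 45.2% ± 0.322 with shRNA 2 (SD, n = 3 each). The share thus differed by less than the spread between replicates. The mean of the median ratio differed by 0.06, against SDs of 0.058 in the control and 0.045 with shRNA 2.

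Split by distance, the pairs moved in opposite directions. Among 1851 pairs at most 300 nt apart, the median log2 ratio was 0.43, 0.39 and 0.29 in control 1 to 3 and 0.13, 0.17 and 0.21 with shRNA 2. All shRNA 2 libraries lay below all controls there, by 0.20 on average (-0.20; -0.24 without control 3). Among 2704 pairs over 1000 and up to 5000 nt apart it was -0.28, -0.27 and -0.42 in the controls and -0.13, -0.03 and -0.08 with shRNA 2. All shRNA 2 libraries lay above all controls in these, with a difference of 0.25 (0.20 without control 3). The share of reads at distal sites in this class did overlap, at 40.4%, 40.6% and 42.6% in control 1 to 3 and 42.9%, 43.2% and 42.6% with shRNA 2 (exact permutation test, two-sided p = 0.2). Both differences of the median ratio had the smallest two-sided exact permutation p that 3 against 3 allows, 0.1. It was 0.2 after Benjamini-Hochberg adjustment over the median ratio and the share of reads, each in all pairs and in every distance class. Neither difference could therefore pass a threshold of 0.05.

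The 1349 pairs over 300 and up to 1000 nt apart differed by 0.11 in the median ratio (0.05 without control 3), also without overlap, while in the share of reads control 3, at 41.8%, lay above every shRNA 2 library (39.9% to 40.3%). The 124 pairs over 5000 nt apart gave 0.14 with overlapping groups. In that last class the distal sites held 68.7% ± 2.75 of reads in the control and 59.8% ± 0.455 with shRNA 2, so the share of reads and the median pair moved in different directions. In finer classes, chosen after values had been seen, the largest fall was at 51 to 100 nt, where the median log2 ratio was 0.57, 0.48 and 0.36 in the controls and 0.08, -0.04 and 0.13 with shRNA 2. The largest rise was at 2001 to 3000 nt, from -0.19, -0.22 and -0.49 to 0.02, 0.08 and 0.08. At 201 to 300 nt the groups overlapped and differed by 0.01.

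**Figure D2:**
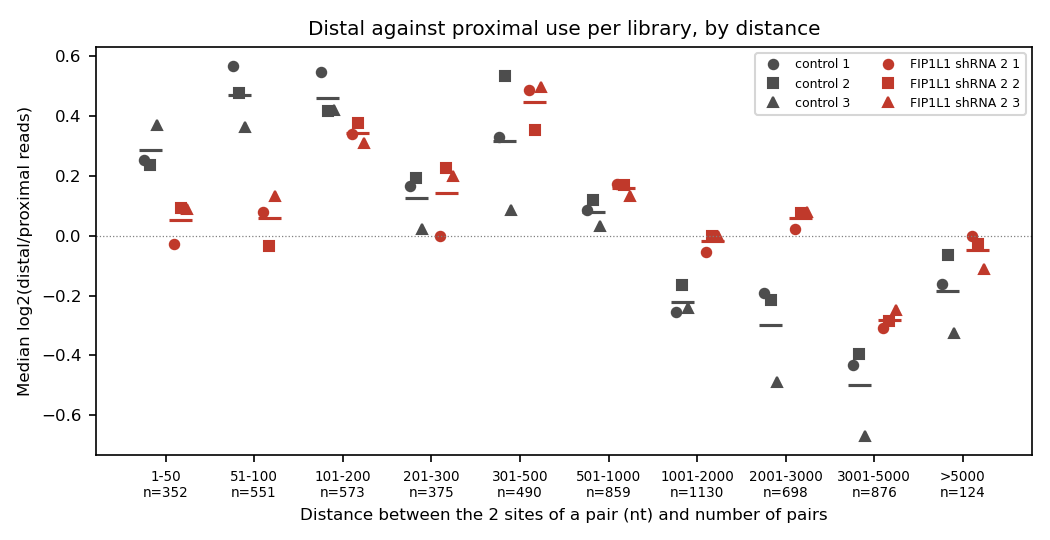
The median log2 ratio of distal to proximal reads (y axis) is shown for each library in 10 classes of distance between the 2 sites of a pair (x axis, nt, with the number of pairs). Grey and red symbols are control and shRNA 2 libraries, with shape giving the replicate, and bars are group means: shRNA 2 lies below the control up to 200 nt and above it from 501 to 5000 nt.

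The sites behind these shifts moved on both sides. In pairs at most 300 nt apart, proximal sites had a median log2 change of 0.08 (121 called higher, 82 lower) and distal sites of -0.08 (65 higher, 102 lower). In pairs over 1000 and up to 5000 nt apart, proximal sites had a median of -0.12 (66 higher, 194 lower) and distal sites of 0.06 (146 higher, 119 lower). These levels move with the scaling by the shift given above, while the ratio within a pair does not.

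A test of the ratio in each pair (edgeR, adjusted p under 0.05) called 40 pairs with a shift towards the distal site and 27 towards the proximal site, which is 0.664% and 0.448% of 6028 pairs and 1.11% in all. In all 67 the groups did not overlap, and the share without overlap over all pairs is not given here. The smallest called shift was 1.68 on the log2 scale, and 864 pairs had an unadjusted p under 0.05. By distance, pairs at most 300 nt apart gave 4 calls towards distal and 18 towards proximal, those over 300 and up to 1000 nt apart 2 and 1, those over 1000 and up to 5000 nt apart 30 and 6, and those further apart 4 and 2. With sites joined only within 2000 nt the balance turned, to 18 towards distal and 25 towards proximal. The median distance was 2554 nt in the 40 pairs and 100 nt in the 27.

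Few pairs were called and the number depended on every library. It was 24 and 19 without control 3, of which 21 and 17 were among the calls above, 10 and 3 without control 1, and 2 and 2 without shRNA 2 replicate 3. Without control 2, shRNA 2 replicate 1 or shRNA 2 replicate 2 it was 0 and 2 each time, with 398 and 304, 311 and 264, and 322 and 262 pairs at an unadjusted p under 0.05 in edgeR, the tool used for those fits. With the shRNA 1 libraries left out of the fit 191 and 166 pairs were called, among them all 40 and 27. In that fit the split by distance was 15 and 91 up to 300 nt and 151 and 47 over 1000 and up to 5000 nt. The same classes had 4 and 15, and 17 and 2, calls without control 3.

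**Figure D3:**
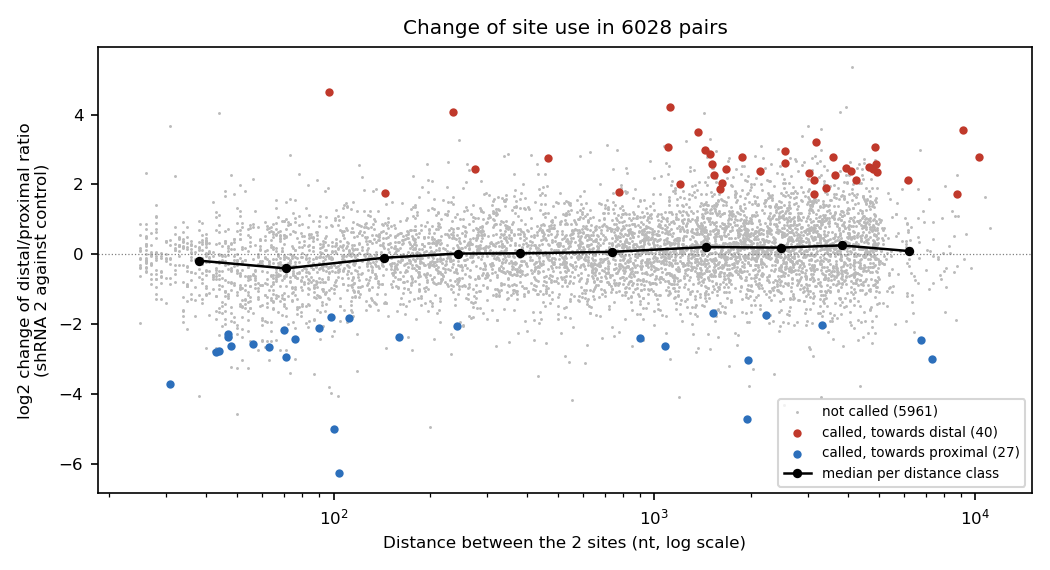
Each point is 1 of 6028 pairs, with the distance between its 2 sites on the x axis (nt, log scale) and the log2 change of the distal to proximal ratio with shRNA 2 on the y axis. Red marks the 40 pairs called towards distal and blue the 27 towards proximal, and the black line joins the medians of 10 distance classes. The line starts at -0.18 at 1 to 50 nt and is lowest at 51 to 100 nt (-0.40). It is highest at 3001 to 5000 nt (0.25) and ends at 0.09 over 5000 nt.

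Total RNA of the run was not called different in 48 of the 67 called pairs, which does not show that it was unchanged. Over all 6028 multi-site runs the total was called in 945, a smaller share than among the called pairs. Of the 40 pairs that moved towards distal, the run total was lower in 12, higher in 0 and not called in 28. Of the 27 that moved towards proximal, it was higher in 5, lower in 2 and not called in 20. Among the 40, the proximal site was called lower in 19 and the distal site higher in 21, with both in 6. Among the 27, the proximal site was called higher in 17 and the distal site lower in 10, with both in 3.

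Pairs are named by letter, A to L for those towards distal and M to X for those towards proximal, and shares are the percent of the pair's reads at its distal site. Without control 3, 7 of the 24 named pairs lost their call: C, D, F, H, P, R and V. More lost it when another library was left out: 14 without control 1 and 22 without control 2. Without shRNA 2 replicates 1, 2 and 3, 22, 22 and 20 lost it. With the shRNA 1 libraries left out of the fit, all 24 kept their call. The largest shift towards distal was in pair A, on the minus strand of chromosome 9, with sites at 137029697 and, 97 nt downstream, at 137029600. Its distal share was 3.2%, 3.74% and 3.24% in control 1 to 3 and 61.3%, 40.5% and 40.9% with shRNA 2, with no overlap (log2 change 4.65, SE 0.69, edgeR adjusted p = 0.0103). The proximal site fell by 2.61 and the distal rose by 2.10 on the log2 scale. With 4, 8 and 8 control reads, the distal site passed the filter through libraries of both shRNAs, so its call is no support of its own. In pair B, on the minus strand of chromosome 20 (26189982 and 26188865), the distal share went from 9.09%, 10.3% and 8.38% to 80%, 68% and 50%. Only the proximal site of pair B was called, with a log2 change of -4.27 (SE 0.50, edgeR adjusted p = 1.80e-04), and the run total fell by 2.86.

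In pair C, on the plus strand of chromosome 22 (46509570 and 46509806), the distal share was 70.4%, 68.9% and 52.9% in the controls and 96.6%, 93.3% and 100% with shRNA 2. The proximal site of pair C held 40, 51 and 72 control reads against 3, 7 and 0. Pair D, on the minus strand of chromosome 6 (170470992 and 170461834), spanned 9158 nt, and its major site switched: the distal share was 40.3%, 42.9% and 33.1% in the controls and 93.5%, 84.5% and 86.5% with shRNA 2 (log2 change 3.56, SE 0.69, edgeR adjusted p = 0.0223). In pairs B, C and D alike the proximal site fell and the distal site was not called.

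Pairs E, F and G gained reads at the distal site. In pair E, on the minus strand of chromosome X (152713128 and 152709932), the share rose from 1.59%, 0.607% and 0.489% to 7.81%, 7.99% and 6.67%. In pair F, on the plus strand of chromosome 21 (40195720 and 40196821), it rose from 8.70%, 7.54% and 7.92% to 46.5%, 40.6% and 40.3%. In pair G, on the plus strand of chromosome 1 (161184182 and 161189034), it rose from 3.45%, 3.56% and 3.43% to 28.1%, 21.2% and 21.0% (log2 change 3.06, SE 0.41, edgeR adjusted p = 0.00683). The distal sites of E, F and G had log2 changes of 2.48, 2.15 and 2.31 and were each called, and none of the proximal sites was.

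Some called shifts involved a distal site that remained minor. In pair H, on the plus strand of chromosome 20 (18550201 and 18551639), the distal share went from 0.0868% ± 0.0214 to 0.718% ± 0.203, on 2, 5 and 3 control reads against 7, 18 and 22. That distal site passed the filter through libraries of both shRNAs, so this call is no support of its own. Pair I, on the plus strand of chromosome 17 (56168583 and 56178840), went from 0.856% ± 0.126 to 5.67% ± 0.804 over 10257 nt. In pair K, on the plus strand of chromosome 19 (50191704 and 50193831), the share rose from 1.53% ± 0.309 to 7.46% ± 0.768 while the proximal site fell from 852 ± 196 to 281 ± 40.6 CPM. The levels of shRNA 1 in pair K, 5.64% to 9.31%, spanned those of shRNA 2.

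Pairs J and L switched their major site towards distal. Pair J, on the minus strand of chromosome 9 (35661434 and 35658874), had distal shares of 26.1%, 20.9% and 16.6% in the controls and 70.6%, 58.5% and 56.6% with shRNA 2 (log2 change 2.62, SE 0.41, edgeR adjusted p = 0.0109). Its proximal site fell by 1.58 and its distal site rose by 1.07 on the log2 scale. Pair L, on the plus strand of chromosome 19 (2248653 and 2252071), went from 28.5%, 34.8% and 28.9% to 59.3%, 63.9% and 63.9%, with the distal site rising from 36.4 ± 6.64 to 113 ± 11.0 CPM. In all, 4 called pairs switched towards distal, with a distal share under 50% in every control and over 50% in every shRNA 2 library, and 5 switched towards proximal.

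Pair M held the largest shift towards proximal and contained the chromosome 11 site described above, with the proximal site at 93454929, 104 nt upstream. Its distal share was 99%, 98.6% and 99.0% in the controls and 58.3%, 65.6% and 33.9% with shRNA 2 (log2 change -6.26, SE 0.54, edgeR adjusted p = 1.23e-04). The proximal site was not called, at 1.38 ± 0.397 against 2.92 ± 1.27 CPM, while the distal site fell. The run total fell by 3.98. In pair N, on the minus strand of chromosome 3 (56656110 and 56654161), the proximal site held 1, 0 and 3 control reads and 51, 57 and 32 with shRNA 2, and the distal share went from 98.6%, 100% and 95.3% to 61.1%, 68.0% and 75.4%. With 4, 6, 1 and 5 shRNA 1 reads, that proximal site passed the filter through its shRNA 2 reads, so this call is no support of its own.

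Pair O, on the minus strand of chromosome 10, had sites 31 nt apart (103124635 and 103124604), and sites so close may be one region of cleavage. Its distal share was 25.8%, 20.3% and 16.5% in the controls and 1.69%, 2.31% and 1.86% with shRNA 2 (log2 change -3.72, SE 0.44, edgeR adjusted p = 0.00263). The proximal site rose from 15.1 ± 0.949 to 126 ± 30.2 CPM. With shRNA 1 the proximal site held 9324 to 14502 reads per library against 992 to 1161 with shRNA 2.

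Pairs P and Q lost reads at a distal site far downstream. In pair P, on the plus strand of chromosome 19 (10397290 and 10399245), the distal share fell from 24.1%, 17.5% and 14.7% to 1.34%, 4.70% and 2.34%, and the distal site changed by -2.83 on the log2 scale. In pair Q, on the plus strand of chromosome 5 (176492975 and 176500296), 7321 nt apart, it fell from 20.9%, 19.6% and 25.3% to 3.33%, 4.14% and 2.71%. The shRNA 1 libraries stood at 21.4% to 49.3% in pair Q and at 0.685% to 4.48% in pair P. In both, the proximal site and the run total were not called.

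Pairs R, S, T and U were at most 71 nt apart. In pair R, on the minus strand of chromosome 14 (65541916 and 65541845), the distal share was 88.4%, 90.6% and 83.3% in the controls and 45.7%, 46.1% and 53.7% with shRNA 2. In pair S, on the plus strand of chromosome 11 (82869878 and 82869921), it was 51.2%, 63.5% and 32.2% against 14.2%, 10.1% and 12.4%, with control 3 lowest among the controls. In pair T, on the minus strand of chromosome 1 (90285778 and 90285734), it was 92.8%, 89.2% and 91.3% against 59.4%, 56.9% and 62.1%. The proximal sites of R and T rose by 2.69 and 3.21 on the log2 scale while their distal sites were not called, and in S the distal site fell by 1.94.

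Pair U, on the minus strand of chromosome 3 (195776204 and 195776156), switched its major site over 48 nt: the distal share was 77.8%, 79.4% and 63.2% in the controls and 31.5%, 32.9% and 30.4% with shRNA 2 (log2 change -2.63, SE 0.40, edgeR adjusted p = 0.0103). Its proximal site rose from 75.9 ± 23.9 to 231 ± 22.9 CPM and its distal site fell from 211 ± 32.0 to 107 ± 7.64, and its run total was not called. Pair X, on the minus strand of chromosome 14 (74946748 and 74946650), switched over 98 nt with the most reads of any named pair: 72.6%, 74.4% and 61.3% against 36.9%, 41.3% and 41.6% (log2 change -1.80, SE 0.35, edgeR adjusted p = 0.0223). Its proximal site rose from 115 ± 4.03 to 672 ± 56.9 CPM and its run total by 1.52 on the log2 scale.

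Pair V, on the minus strand of chromosome 7 (43670757 and 43663966), switched towards a proximal site 6791 nt upstream, from 78.9%, 75.6% and 84.5% distal to 46.4%, 43.9% and 36.4%. In pair W, on the minus strand of chromosome 17 (43002167 and 43002077), the distal share fell from 49.5%, 59.9% and 56.5% to 23.5%, 22% and 21.2%, with the proximal site rising from 25.1 ± 9.05 to 139.5 ± 17.3 CPM. The run total of pair W rose by 1.73. For V the shRNA 1 libraries, at 81.7% to 91.5%, were on the other side of the control from shRNA 2.

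**Figure D4:**
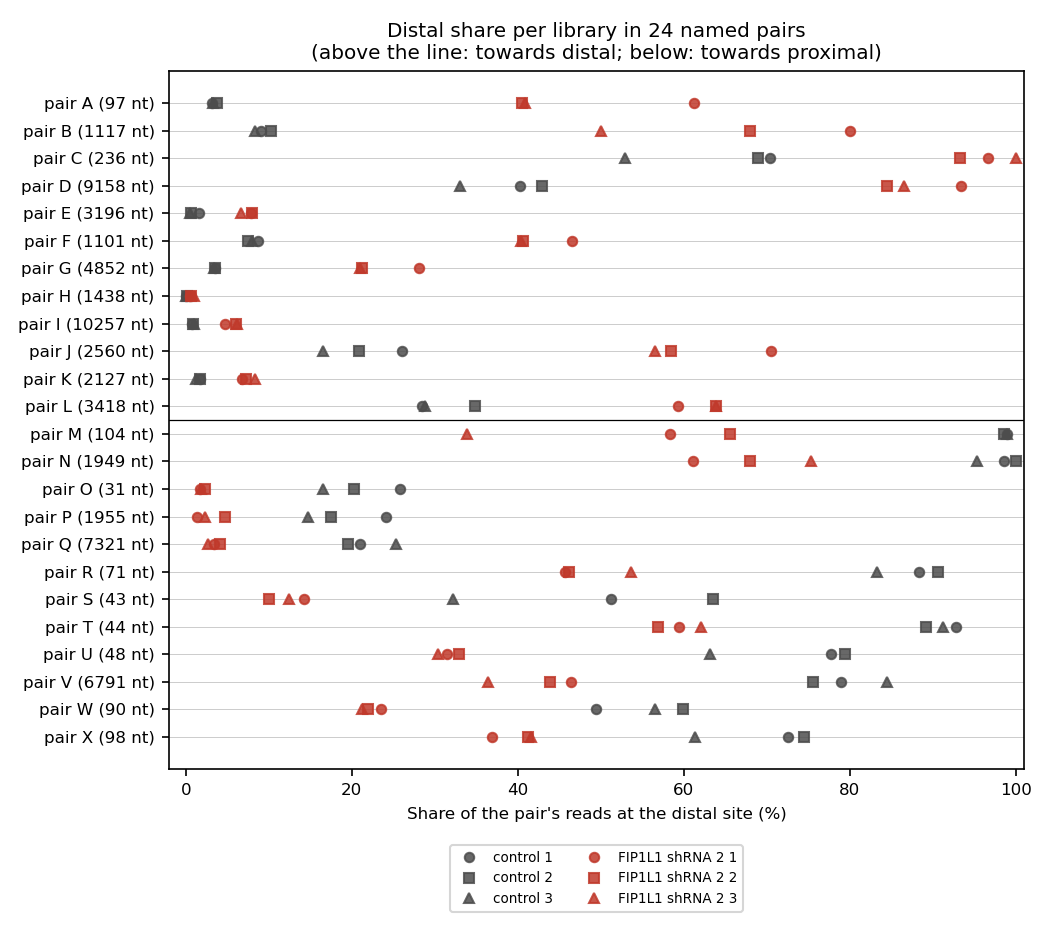
The share of a pair's reads at its distal site (x axis, percent) is shown for every control (grey) and shRNA 2 (red) library in the 24 named pairs, with the distance between sites after each name. Pairs A to L lie above the line and pairs M to X below it, and control and shRNA 2 values do not overlap in any row; in pair H all lie under 1% and their symbols touch.

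Shares of the run's reads were also taken over all its sites. In the run of pair A, the first of 4 sites held 86.6% ± 1.37 of the run's reads in the control and 24.6% ± 5.18 with shRNA 2, while the third site, 137 nt downstream and outside the pair, went from 5.45% ± 1.84 to 47.2% ± 3.82. In the run of pair D, the last of 4 sites, 12119 nt from the first, went from 24.4% ± 2.67 to 77.5% ± 4.57, and each of the 3 upstream sites lost share. In the run of pair M the fourth site fell from 98.1% ± 0.649 to 42.3% ± 15.2, and the 3 upstream sites made up a larger share of a run total that had fallen, while none of them was called. The run of pair I had 6 sites, of which the 4 most downstream were each called higher with log2 changes from 2.90 to 4.29, while its main site held 96.5% ± 0.595 and 87.0% ± 1.70.

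In the run of pair P the 2 last sites, 35 nt apart at 2720 and 2755 nt from the first, both fell, from 7.59% ± 3.40 to 1.56% ± 0.784 and from 16.7% ± 3.70 to 2.58% ± 1.56. In the run of pair W, all 3 sites lay within 138 nt: the first and second were called higher and the last was not. In the run of pair J of 7 sites, the first went from 76.2% ± 5.63 to 34.7% ± 7.17 and the one 2560 nt downstream from 20.4% ± 4.30 to 56.2% ± 6.60.

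**Figure D5:**
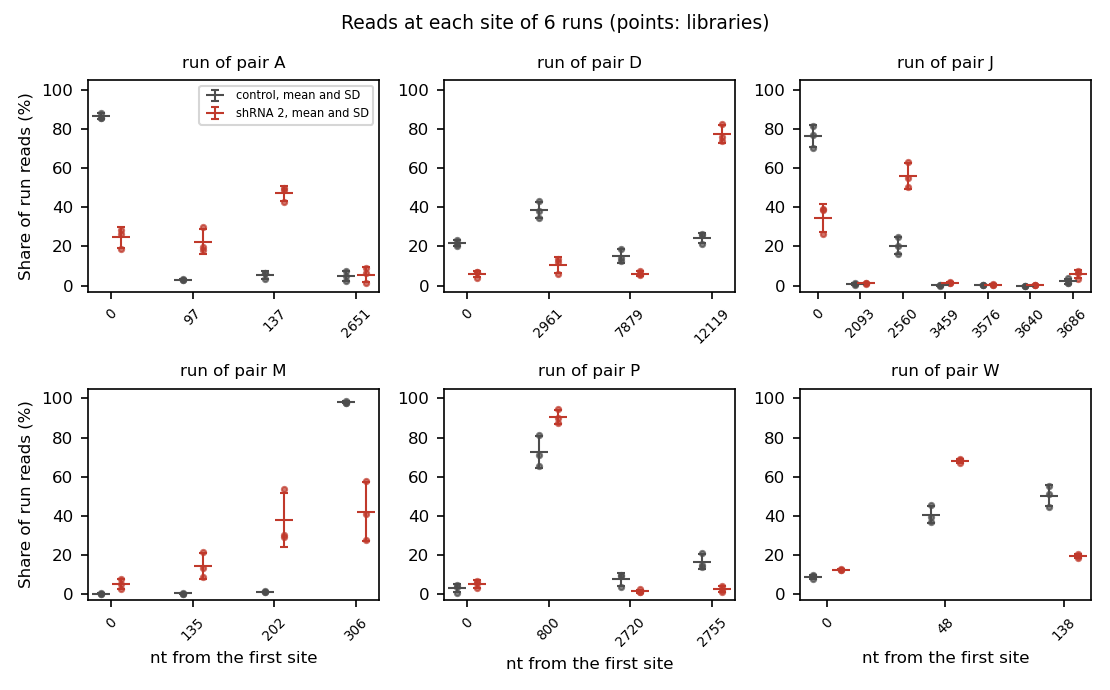
Each panel is 1 run of tested sites, with the sites in order of their distance from the first (x axis, nt, not to scale between sites) and the percent of the run's reads at each (y axis). Bars are means with SD over 3 control (grey) and 3 shRNA 2 (red) libraries and points are libraries; the last site of the run of pair M goes from 98.1% to 42.3% and that of pair D from 24.4% to 77.5%.

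The comparison of shRNA 1 with the control shares the control libraries, so its values stand here only side by side. Its median log2 change of the pair ratio was -0.08 up to 300 nt, 0.08 over 300 and up to 1000 nt, 0.29 over 1000 and up to 5000 nt and 0.57 above, against -0.18, 0.06, 0.21 and 0.09 with shRNA 2. Called pairs towards distal and proximal were 4 and 17 up to 300 nt and 71 and 29 over 1000 and up to 5000 nt with shRNA 1. The difference between the shRNAs in these classes was not tested.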

How the data were processed

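The 3'READS values were whole-number read counts per poly(A) site that the authors deposited, without gene names or normalisation, in 10 libraries of 5666102 to 10846661 reads. RNA-seq values were deposited counts per gene and served only for FIP1L1 and cell markers. The submitters' processing notes name STAR 2.7.3a, cutadapt 2.6, hg19 and DESeq2 with no roles. How reads were joined into sites and counted, any correction for internal priming, and whether positions start at 0 or 1 were not given in the sources used here. All 10 columns were assigned, and 0 were left over. Molecular identifiers were not used, so depth covers counting error only.

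Mitochondrial sites were set aside, and library sizes were nuclear reads scaled by TMM. Sites, run totals and pairs were tested with edgeR 4.0.16 (quasi-likelihood F test, R 4.3.3) in fits of all 10 libraries with 1 coefficient for each group (7 residual degrees of freedom). P-values were two-sided and adjusted with the Benjamini-Hochberg method over all features of a test. The pair test used both sites of each library, a term per library and the change of the distal to proximal ratio with the shRNA. Per-library ratios used a pseudocount of 0.5 and exact permutation tests. Alternatives were DESeq2 1.42.0, limma 3.58.1, other scalings, filters, join distances and pairs, a replicate block, 6 libraries only and leaving out libraries. The tests were tested on simulated data.

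Named sites were the 6 highest and 6 lowest called changes with at least 5 CPM and no overlap. Named pairs, with at least 10 CPM and no overlap, were in each direction the 8 largest shifts, the 4 smallest adjusted p-values and the 3 major-site switches with most reads, and 1 chromosome 8 pair was counted, not named. The members, lists and tests were chosen with earlier results of these data known. 1 marker is not reported here.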

Additional observations from a re-analysis of the deposited data

Results flagged for a closer look

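Mitochondrial reads, which the comparisons leave out, made up 11.7%, 10.7% and 9.48% of 3'READS reads in control 1 to 3 and 14.9%, 13.9% and 14.3% with shRNA 2, a mean of 14.4% ± 0.511 (SD, n = 3) above the 10.6% ± 1.12 of the controls. The groups did not overlap (exact permutation test, two-sided p = 0.1, the smallest possible). With shRNA 1 the share ran from 6.56% to 8.87%, below every control.

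Nuclear reads at sites that did not pass the filter were 4.71%, 4.97% and 5.47% of nuclear reads in control 1 to 3 and 6.26%, 5.96% and 6.12% with shRNA 2, with means of 5.05% ± 0.389 and 6.11% ± 0.154, again without overlap (exact permutation test, two-sided p = 0.1). With shRNA 1 they ran from 6.01% to 7.42%. At an equal depth of 5237613 nuclear reads, the expected number of sites with a read was 198812, 208125 and 213429 in control 1 to 3 and 234001, 229284 and 234531 with shRNA 2. Reads were therefore spread over more sites in each shRNA 2 library than in any control.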

How the results depend on the processing

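All 12 named sites kept their direction and call in each of 14 alternatives. Pair M kept its call in 16, pair O lost its call under the replicate block alone, each other named pair lost its call in at least 4, and no named item reversed. Site calls higher and lower numbered 2763 and 2746 with 6 libraries only, 4699 and 4670 with these without control 3, 500 and 502 under the replicate block, and 2024 and 744 on nuclear totals without TMM; DESeq2 called 1943 higher. In the same order, run calls numbered 1788 and 2159, 2931 and 3541, 509 and 659, and 1704 and 708, with 1547 higher by DESeq2. Pairs called towards distal and proximal numbered 191 and 166 with 6 libraries, 685 and 606 with these without control 3, and 8 and 3 with sites of at least 10 reads in total, where 16112 pairs were tested. The edgeR fit with a replicate block gave 0 and 1 pairs, with 352 and 283 at an unadjusted p under 0.05 and no such limma fit run. Joining sites within 2000 nt gave 18 towards distal and 25 towards proximal, which turned the balance of 40 and 27, and within 10000 nt 73 and 40. First and last sites gave 26 and 8, and pairs at least 100 nt apart 39 and 14. Leaving out 1 library in turn, which leaves 6 residual degrees of freedom, gave 416 to 862 sites higher and 362 to 826 lower, 436 to 737 and 490 to 874 runs, and 0 to 24 and 2 to 19 pairs. Control and shRNA 2 libraries of the same number did not deviate together (correlations of -0.051, -0.0060 and -0.128), so the block lowers the count without a known pairing. The per-library difference up to 300 nt was -0.31 with first and last sites; other settings gave -0.16 to -0.24. The cause of these differences was not tested. Fits without TMM and without control 3 among 6 libraries were chosen after seeing the data. In the lowest of 4 level classes the median SE of a site was 0.77 on the log2 scale, against 0.30 at the highest. A change of a given size was therefore harder to call at rare sites. The part of depth in this was not tested.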

Other observations

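The surroundings of the 2 chromosome 14 sites were listed after their values had been seen: all 16 nuclear sites with at least 10 reads in the 6 libraries within 100 kb of position 24114846. On the minus strand, 8 of them lay between 24052517 and 24053004, and 5 of these had no control read. With so few control and shRNA 1 reads, 4 of them passed the filter through their shRNA 2 reads, so their calls are no support of their own. The site at 24052725 held 0 control reads and 198 with shRNA 2, 52.6-fold higher against a floor of 3 reads over the control group. The lower end of the 95% exact interval of its ratio was 42.4. The site at 24052658 had 1 control read and 54 with shRNA 2, a ratio of 43.1 with a 95% exact interval from 7.41 to 1732. The shRNA 1 libraries were at or below 0.548 CPM at each of the 8.

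Elsewhere in the window, the minus-strand site at 24028783 stood at 73.6, 73.3 and 51.7 CPM in control 1 to 3 and at 88.1, 84.2 and 82.4 with shRNA 2, a log2 change of 0.36 that was not called (edgeR adjusted p = 0.408). The plus-strand site at 24037282 stood at 5.65 ± 2.47 and 6.28 ± 1.31 CPM. The 2 named sites lie on opposite strands, 61998 nt apart.

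Sites that lost the largest share of all nuclear reads were few and abundant, and were likewise picked after their values were seen. A single isolated site on the minus strand of chromosome 19 (3976055) went from 2.10%, 2.05% and 2.30% of nuclear reads in control 1 to 3 to 1.44%, 1.51% and 1.36% (log2 change -0.85, SE 0.22, edgeR adjusted p = 0.0256). One on the minus strand of chromosome 17 (56347223) went from 1.33% ± 0.261 to 0.837% ± 0.0250 (log2 change -0.95, SE 0.23, edgeR adjusted p = 0.0182). One on the plus strand of chromosome 17 (49249104) was at 1.06%, 1.07% and 2.43% in the controls, so control 3 alone held much of its difference from the 0.822% ± 0.0494 with shRNA 2.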
